A study of Homo sapiens with 48 samples.

Results

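The cells described here carry CLIP-tagged UPF1 with the DE636AA change, and the comparison is of their 3 libraries with an siRNA against UPF1 (siUPF1) and their 3 libraries with a non-targeting siRNA (siNT). These 6 libraries, of 48 in the series, were taken by the line and siRNA in their labels, so the choice used no measured value. The line derives from Flp-In 293 T-REx, a HEK293 derivative with an integration site that takes up transgenes, and it expresses the tagged protein stably. Of the groups compared, DE636AA siUPF1 and DE636AA siNT differ in the siRNA alone. Both carry the transgene, and the siNT cells still hold endogenous UPF1 as well. For each library 300000 cells were reverse-transfected with 40 nM siRNA and harvested 72 h later, and the triplicates are biological replicates per the design text. The responses of 3 other lines were set beside it, each with its own 3 siUPF1 and 3 siNT libraries: K498A, with CLIP-UPF1 changed in the ATP-binding motif, CLIP, with the tag alone, and WT, with wild-type CLIP-UPF1. The labels name no inducer of the transgene and do not say whether a line is a clone.

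Nonsense-mediated mRNA decay (NMD) degrades transcripts whose stop codon lies upstream of an exon junction or far from the end of the message, and it also sets the level of many normal transcripts. UPF1 is its RNA helicase: it binds ATP, hydrolyses it to move along RNA and to leave non-target messages, is phosphorylated by SMG1, and then recruits SMG5, SMG6 and other factors to destroy the RNA. DE636AA replaces the aspartate and glutamate of the ATP-hydrolysis motif by alanine, while K498A replaces the lysine that contacts ATP. The comparison asks which transcripts respond to the siRNA against UPF1 in cells that carry this mutant protein. Within it, loss of endogenous UPF1 and other effects of the siRNA cannot be told apart.

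The 6 libraries held 27.4 to 37.3 M expected counts, against 21.3 to 47.1 M over the series, with TMM factors of 1.00 to 1.03. Replicates differed beyond sampling noise in every pair, so each library counts as a replicate. All 9 markers of HEK293 cells were detected in every library, with summed levels of 1130 to 1320 CPM with siUPF1 and 1170 to 1250 CPM with siNT, and 3 of them were called higher and 2 lower. Of 13 markers of other cell types 6 were abundant enough to test, and their summed level, mostly of EPCAM, was 78.9 to 83.1 CPM with siUPF1 and 94.6 to 104 CPM with siNT. Of the 6, 2 were called higher and 2 lower: VWF, of endothelium, at 1.54, 1.42 and 1.60 CPM with siUPF1 and 0.186, 0.545 and 0.191 CPM with siNT (2.35, SE 0.40), the fibroblast collagen COL3A1 (1.07, SE 0.23), EPCAM (-0.39, SE 0.08) and the neuronal RBFOX3 (-1.58, SE 0.28). Their part in the results was not tested. PTPRC, CD3E, HBB and KRT5, of blood cells and basal epithelium, were at 0.0872 CPM or less in each library, and at 0 in some of both groups. The siNT libraries stood apart from each other in base composition, over 11090 protein-coding genes on the log2(CPM + 1) scale. The difference of each siUPF1 library from the siNT mean correlated with GC content at Spearman coefficients of -0.095, -0.029 and 0.345 for siUPF1 1, 2 and 3, and the difference of each siNT library from the mean of the other siNT libraries at -0.578, -0.13 and 0.741 for siNT 1, 2 and 3. The part of this trend in the results was not tested, and the values without siNT 1 and siNT 3 are given where they change the call of an NMD target. Other calls counted in the lists below also missed the threshold. Among them were the snoRNA host SNHG11 (0.41) and the HEK293 marker NEFL (0.38) without siNT 1. Without siNT 3 they included the SR protein gene TRA2A (0.38) and the reference gene TFRC (0.25). In bulk RNA, fewer cells of a type and less RNA per cell cannot be told apart, and a level cannot tell slower decay from more transcription.

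UPF1, the target of the siRNA, was not lower in the siUPF1 libraries. Its level was 6340, 7080 and 8240 CPM with siUPF1, against 4900, 6240 and 5700 CPM with siNT. Every siUPF1 library lay above every siNT library, and the log2 fold change was 0.36 (SE 0.16, adjusted p = 0.0776 by edgeR's quasi-likelihood test and the Benjamini-Hochberg method). The difference passed the threshold with no filter on low counts (0.39, adjusted p = 0.000775) and in a fit to the libraries of this line (0.38, adjusted p = 0.023). Reads of the transgene and the endogenous gene are counted together, so these values do not show how much endogenous UPF1 was lost. In CLIP cells, which have no UPF1 transgene, the same siRNA left 24.2 CPM of a siNT mean of 108 CPM, and the responses of the 2 lines differed by 2.53 (SE 0.24, adjusted p = 6.26e-10).

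The siRNA changed 6555 of 19129 tested genes in DE636AA cells, or 34.3%. Of these 3189 were higher with siUPF1 (16.7%) and 3366 lower (17.6%), and at least 2-fold changes made up 526 (2.75%) and 762 (3.98%) of them. The median log2 fold change over all tested genes was -0.021. Every siUPF1 library lay above every siNT library in 4230 genes (22.1% of those tested) and below in 4426 (23.1%), and 6224 of the called genes were among them. These shares are the background for every count below. Protein-coding genes were called higher in 19.6% and lower in 19.7% of cases, and long intergenic non-coding genes in 9.47% and 16.4%.

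Known NMD targets were the list with the highest share of rises. Of 14 tested targets 13 were higher with siUPF1 and none lower, with a median log2 fold change of 0.72. The list holds regulators of stress and growth arrest that are also controlled by transcription. ARC, the dendritic cytoskeletal protein whose transcript carries exon junctions in its 3′ end, stood at 23.0, 41.1 and 49.1 CPM with siUPF1, against 3.72, 5.99 and 5.15 CPM with siNT. This was also the largest rise of any named gene, 2.94 (SE 0.29, edgeR quasi-likelihood test, Benjamini-Hochberg adjusted p = 3.4e-10), and the groups did not overlap. BAG1, a co-chaperone of HSP70, was at 113, 103 and 140 CPM with siUPF1 and at 45.9, 38.7 and 41.6 CPM with siNT. ATF4, the transcription factor of the integrated stress response, was at 1430, 1400 and 1570 CPM with siUPF1 and at 816, 810 and 928 CPM with siNT. In neither gene did the groups overlap, and the log2 fold changes were 1.5 (SE 0.14) for BAG1 and 0.78 (SE 0.08) for ATF4.

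ATF3, a stress-induced repressor, was at 91.8, 100.0 and 84.4 CPM with siUPF1 and at 49.2, 61.7 and 48.5 CPM with siNT, a rise of 0.80 (SE 0.14). GADD45B, a growth-arrest gene and activator of p38 signalling, was at 23.1, 42.0 and 29 CPM with siUPF1, against 10.9, 22.2 and 11.8 CPM with siNT. Replicate 2 was the highest of its group under both siRNAs, the groups did not overlap, and the rise was 1.07 (SE 0.22). GABARAPL1, which encodes a protein of the autophagosome membrane, rose by 0.78 (SE 0.11), MAP3K14, the kinase of the alternative NF-κB pathway, by 0.74 (SE 0.13) and IFRD1 by 0.71 (SE 0.09). These 3 genes and DDIT3 overlap another annotated gene, and the transcribed pseudogene RP9P (0.61, SE 0.14) shares sequence with its parent, so these counts are uncertain.

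Calls at the lower end of the list depended on which libraries were fitted. GADD45A, the gene that was not called, was at 62.0, 75.6 and 69.7 CPM with siUPF1 and at 50.2, 72.8 and 54.5 CPM with siNT, and its change was 0.22 (SE 0.13, edgeR quasi-likelihood test, adjusted p = 0.195). Without siNT 2, its highest control, the change was 0.40 (adjusted p = 0.0267). The rise of DDIT3, a pro-apoptotic factor of the stress response, was 0.45 (SE 0.17) and did not pass without siUPF1 2 (0.45), siUPF1 3 (0.44), siNT 1 (0.35) or siNT 3 (0.48). That of UPP1, a uridine phosphorylase, was 0.47 (SE 0.15) and did not pass without siUPF1 3 (0.36), siNT 1 (0.37) or siNT 3 (0.42). ERN1, the IRE1 sensor of unfolded proteins, rose by 0.42 (SE 0.13), and by 0.30 without siNT 1, where it missed the threshold. TBL2 rose by 0.26 (SE 0.08), and missed the threshold without siNT 3 (0.20) and with no filter on low counts (0.28).

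**Figure D1:**
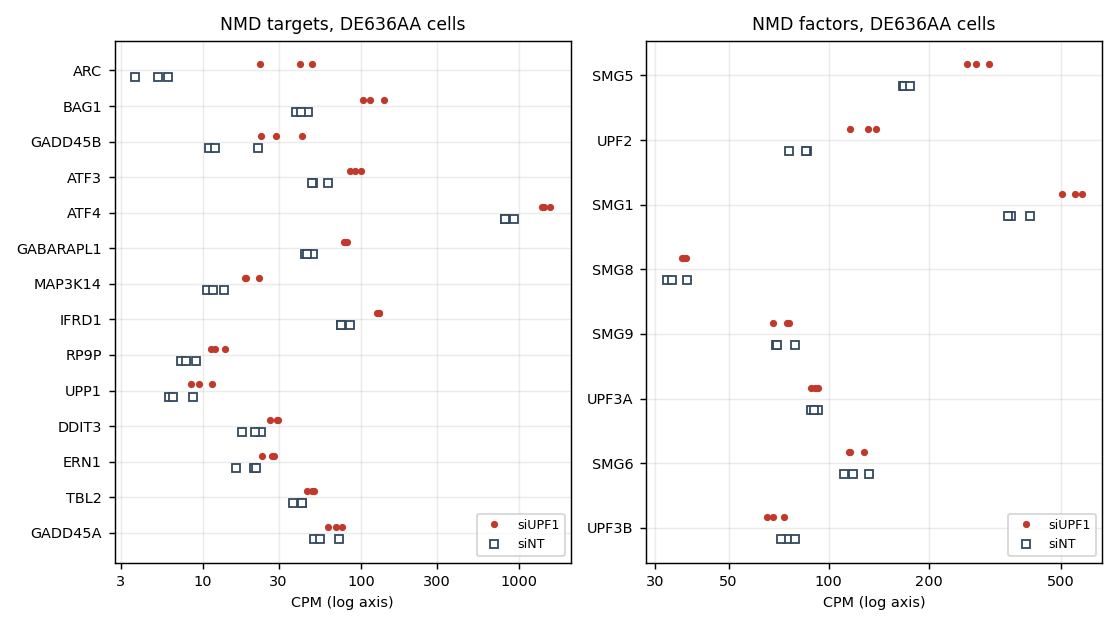
Levels of NMD targets (left) and NMD factors (right) in DE636AA cells, in CPM on log axes, with 1 point per library (filled circles siUPF1, open squares siNT) and genes ordered by log2 fold change. All 3 siUPF1 libraries lie above all 3 siNT libraries in ARC, BAG1, ATF4, SMG5, UPF2 and SMG1, while the groups overlap in GADD45A, UPP1 and the 5 lowest factors.

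Among the factors of NMD itself, 3 of 8 rose and none fell, with a median of 0.04, and the 3 made a group apart from the others. SMG5, which binds phosphorylated UPF1 and recruits decapping and deadenylation, was at 278, 261 and 303 CPM with siUPF1, against 167, 169 and 176 CPM with siNT. UPF2, the partner that links UPF1 to the exon junction complex, was at 139, 131 and 116 CPM with siUPF1, against 86.2, 85.4 and 76.1 CPM with siNT. In both the lowest siUPF1 library exceeded the highest siNT library, and the rises were 0.72 (SE 0.10) and 0.64 (SE 0.10). SMG1, the kinase that phosphorylates UPF1, rose by 0.56 (SE 0.08). It has pseudogene copies, and it overlaps another annotated gene, so its count is uncertain. In the 5 others, the SMG1 regulators SMG8 and SMG9, the endonuclease SMG6 and the exon junction partners UPF3A and UPF3B, the change ran from -0.12 to 0.08, no test passed and the groups overlapped (edgeR quasi-likelihood test, adjusted p from 0.338 to 0.991). SMG6 and SMG8 overlap other annotated genes.

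The non-coding hosts of small nucleolar RNAs, whose spliced transcripts are classical NMD substrates, held a smaller share of rises than the NMD targets. Of 18 tested, 6 were higher and 1 lower with siUPF1, with a median of 0.26. EPB41L4A-AS1 was at 81.5, 86.8 and 86.3 CPM with siUPF1, against 47.2, 49.5 and 49.6 CPM with siNT, and SNHG7 at 64.6, 61.4 and 71.3 CPM with siUPF1, against 42.4, 41.4 and 43.7 CPM with siNT. Both were separated and rose by 0.80 (SE 0.08) and 0.63 (SE 0.12), and SNHG3 fell by 0.52 (SE 0.11). All 3 overlap other genes and their counts are uncertain, and without siNT 2 the list held 4 called members. Annotated NMD isoforms were about as common in each class: 43.0% of protein-coding genes called higher, 42.0% of those called lower and 41.4% of those not called had a transcript of the NMD biotype. The median length of the 3′ UTR was 1200 bases in genes called higher, 1110 in those called lower and 1000 in those not called.

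The response of the line was then set against those of the other lines in the NMD lists. Of the 14 targets, 13 were called higher in DE636AA, 10 in K498A, 14 in CLIP and 2 in WT, with median log2 fold changes of 0.72, 0.62, 1.05 and 0.02. The same lines had 16.7%, 16.1%, 25.1% and 13.9% of all tested genes called higher and 17.6%, 16.4%, 22.3% and 13.2% called lower. The test of the difference between responses placed 7 targets higher in DE636AA than in WT and none lower, where 1.76% of all genes were higher and 2.71% lower. For GADD45B the difference from WT was 1.38 (SE 0.32, 95% interval 0.76 to 2.01, edgeR quasi-likelihood test, adjusted p = 0.00625), and it missed the threshold in a fit to the 2 lines alone (1.40). For ATF3 it was 1.10 (SE 0.20, 0.7 to 1.5, adjusted p = 0.000575) and for ATF4 0.68 (SE 0.11, 0.45 to 0.90, adjusted p = 0.000199). IFRD1, GABARAPL1, MAP3K14 and ARC were the others, and the calls of MAP3K14 (0.66) and ARC (1.55) were also lost in that fit. SMG5 differed most among the factors, by 1.03 (SE 0.14, 0.76 to 1.31, edgeR quasi-likelihood test, adjusted p = 8.36e-06), with a change of -0.31 (SE 0.10) in WT. UPF2 and SMG1 were also higher in DE636AA than in WT. UPF3A went the other way, with a difference of -0.30 (SE 0.08) and a rise of 0.31 (SE 0.05) in WT. Its difference also missed the threshold in the fit to the 2 lines alone (-0.29).

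Against CLIP, the DE636AA response was lower in 7 of the 14 targets and in 5 of the 8 factors, and higher in none, where 11.6% of all genes were lower and 6.26% higher. BAG1 rose by 2.30 (SE 0.15) in CLIP, so that the DE636AA response differed by -0.81 (SE 0.20, edgeR quasi-likelihood test, adjusted p = 0.00405). In a fit to the 2 lines alone, RP9P was the target that still passed, while BAG1 (-0.80, adjusted p = 0.116), GADD45A (-0.86), ERN1 (-0.69), UPP1 (-0.61), GABARAPL1 (-0.58) and TBL2 (-0.36) missed the threshold, and all 5 factors passed. The 5 factors were UPF3A, UPF3B, SMG1, SMG6 and SMG9, and SMG1, with the widest gap, rose by 1.52 (SE 0.08) in CLIP and differed by -0.96 (SE 0.11). For ATF4 the difference from CLIP was -0.02 with a 95% interval of -0.24 to 0.21, and for UPF2 -0.09 with an interval of -0.37 to 0.19. The snoRNA hosts differed in 13 of 18, all with the lower response in DE636AA. In the fit to the 2 lines EPB41L4A-AS1 (-0.62) and SNHG11 (-0.88) missed the threshold. Only named genes were checked in that fit, so it is not known how many of the other hosts would pass. CLIP siUPF1 2 stood apart from its group, and without it the difference of UPP1 (-0.55) missed the threshold in the fit to all lines.

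**Figure D2:**
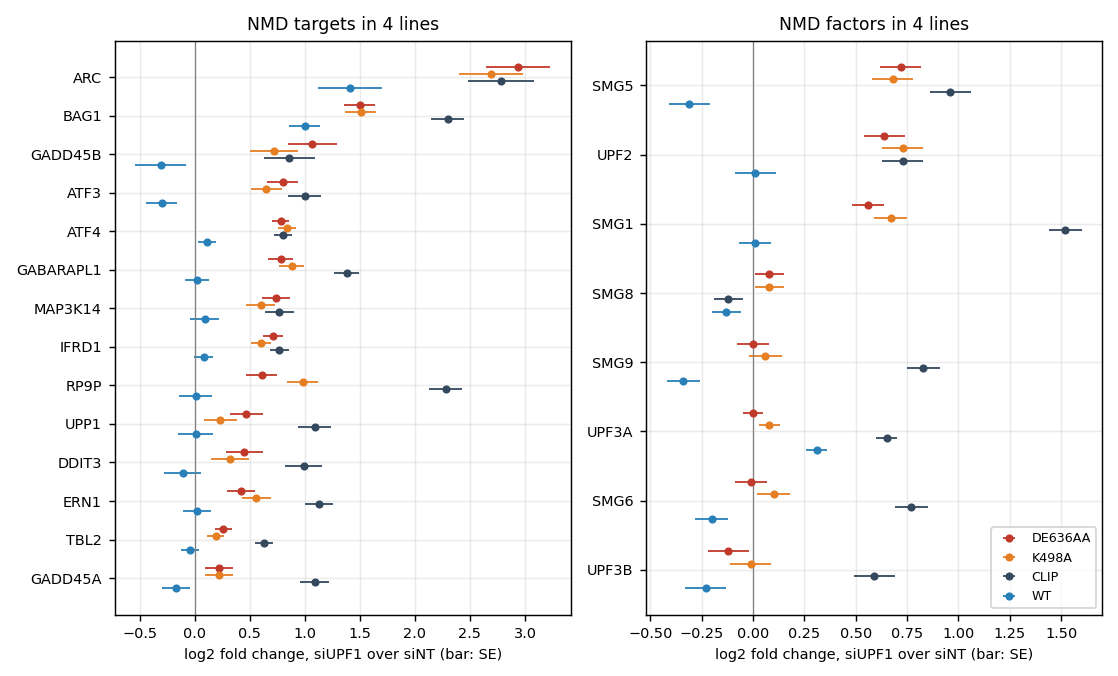
Log2 fold change of siUPF1 over siNT for NMD targets (left) and NMD factors (right) in the DE636AA, K498A, CLIP and WT lines, from top to bottom within a gene, with bars of 1 SE from the edgeR model (3 libraries per group). In SMG5 the DE636AA value of 0.72 lies above the WT value of -0.31, and in SMG1 the CLIP value of 1.52 exceeds the DE636AA value of 0.56.

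No gene responded differently in DE636AA and K498A at an adjusted p under 0.05 in the edgeR quasi-likelihood test (0 of 19129, or 0%), and 262 had an unadjusted p under 0.05. DESeq2 also called 0, with 228 under that unadjusted threshold. Of 12004 genes that averaged 5 CPM or more, 11901 (99.1%) had a 95% interval of the difference that lay within 1 log2 unit of 0, and the median half-width was 0.32. The point estimates ran from -0.97 to 0.74 in these genes. A margin of 1 log2 unit is wide beside the responses, whose median absolute value in DE636AA was 0.286 over all tested genes. With no filter on low counts 42 genes were called. Of the 3189 genes called higher in DE636AA, 2597 were called higher in K498A, which is 81.4% of the DE636AA genes and 84.1% of the K498A genes. In either direction 32.6% of all genes were called in K498A, 47.3% in CLIP and 27.2% in WT. The shares with CLIP were 68.2% of the DE636AA genes and 45.4% of the CLIP genes, and with WT 53.1% of the DE636AA genes and 63.5% of the WT genes.

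Apart from ARC, the largest rises were of genes with diverse roles. G0S2, an inhibitor of the triglyceride lipase ATGL, stood at 11, 11.1 and 14.5 CPM with siUPF1, against 1.94, 2.80 and 2.70 CPM with siNT. VAV1, a guanine nucleotide exchange factor of blood cells, was at 11.5, 11.9 and 12.4 CPM with siUPF1 and at 2.50, 3.67 and 3.08 CPM with siNT. TIMP3, a secreted inhibitor of metalloproteinases, was at 109, 111 and 114 CPM with siUPF1 and at 29.1, 39.0 and 33.8 CPM with siNT. These 3 had siUPF1 libraries close together and well above siNT, with rises of 2.30 (SE 0.18), 1.96 (SE 0.14) and 1.71 (SE 0.10). SRPR, the receptor subunit that docks ribosomes to the endoplasmic reticulum, was at 156, 139 and 132 CPM with siUPF1 and at 45.6, 46.6 and 44.3 CPM with siNT, a rise of 1.64 (SE 0.13). DHRS2, a short-chain dehydrogenase, rose by 2.44 (SE 0.25), and IGFN1, with immunoglobulin and fibronectin domains, by 2.79 (SE 0.28). The deubiquitinase JOSD2, the urea-cycle lyase ASL, the fucosyltransferase FUT1, the collagen receptor DDR2, the lysosomal channel MCOLN1, CCDC19, PAQR6 and STMND1 rose by 1.60 to 1.88. SRPR, IGFN1, ASL, MCOLN1, CCDC19 and PAQR6 overlap other annotated genes and their counts are uncertain. In WT each of these rising genes except FUT1 (0.46, SE 0.29) was called higher as well, with rises of 1.82 for JOSD2, 1.75 for SRPR and 1.74 for VAV1. Among them the difference from WT was called for TIMP3 (0.48, SE 0.14) and CCDC19 (0.95, SE 0.22) only. That of TIMP3 missed the threshold in a fit to the 2 lines alone (0.49).

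The largest falls were likewise of genes with diverse roles. FADS2, the delta-6 fatty acid desaturase, was at 7.56, 6.45 and 8.53 CPM with siUPF1, against 59.1, 56.4 and 71.0 CPM with siNT. HTRA1, a secreted serine protease, was at 1.20, 1.45 and 2.20 CPM with siUPF1, against 11, 11.5 and 12.4 CPM with siNT. PRDX3, the peroxidase of mitochondria, was at 15.1, 16.3 and 21.7 CPM with siUPF1, against 118, 100.0 and 101 CPM with siNT. Each siUPF1 library was far below each siNT library, and the changes were -3.05 (SE 0.14), -2.85 (SE 0.20) and -2.59 (SE 0.23). DSP, the desmosomal linker desmoplakin, was at 193, 215 and 250 CPM with siUPF1, against 820, 970 and 869 CPM with siNT, a change of -2.01 (SE 0.10, edgeR quasi-likelihood test, adjusted p = 3.03e-18). STMN3, a destabiliser of neuronal microtubules, fell by 2.70 (SE 0.38), the homeobox gene MSX1 by 2.38 (SE 0.18) and the receptor NOTCH3 by 2.27 (SE 0.30). The imine deaminase HRSP12, the glycosyltransferase MGAT3, the complexin CPLX1 and the collapsin response mediators DPYSL4 and CRMP1 fell by 2.04 to 2.57. FADS2, HTRA1 and CRMP1 overlap other annotated genes and their counts are uncertain. Every gene of this paragraph was also called lower in WT. Among them the difference from WT was called for FADS2 (-1.04, SE 0.19) and HTRA1 (-1.26, SE 0.27) only. PRDX3 (-2.82 in WT), MSX1 (-2.42) and DSP (-2.02) fell in the WT line as well, with differences between the lines of 0.24, 0.05 and 0.01 (95% intervals of -0.38 to 0.85, -0.45 to 0.55 and -0.26 to 0.28).

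**Figure D3:**
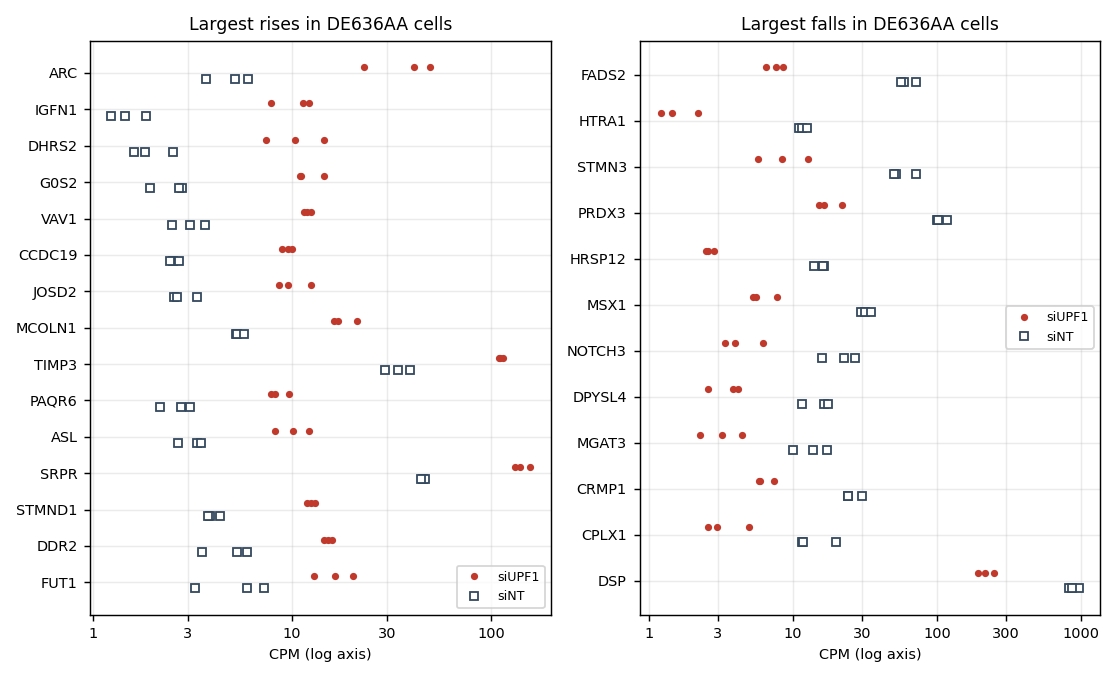
The 15 largest rises (left) and 12 largest falls (right) by the naming rule, in CPM on log axes, with 1 point per library (filled circles siUPF1, open squares siNT). No gene shows an overlap of groups, which the rule required, and FADS2 stood at 6.45 to 8.53 CPM with siUPF1, against 56.4 to 71.0 CPM with siNT.

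Genes downstream of ATF4, which restores amino acid supply in stressed cells, held a share of rises above that of all genes. Of 25 tested, 13 were higher and 2 lower, with a median of 0.39. PPP1R15A, which directs dephosphorylation of eIF2α, was at 159, 226 and 184 CPM with siUPF1, against 54.2, 95.3 and 63.2 CPM with siNT. SESN2, a sensor that restrains mTORC1, was at 93.1, 80.7 and 92.3 CPM with siUPF1, against 31.5, 37.2 and 37.1 CPM with siNT. The groups did not overlap in either, and the rises were 1.42 (SE 0.18) and 1.33 (SE 0.13). JDP2, a partner of AP-1 factors, was at 8.53, 7.09 and 10.8 CPM with siUPF1 and at 2.55, 2.58 and 3.91 CPM with siNT, a rise of 1.55 (SE 0.21). The serine synthesis enzymes PSAT1 (-1.14, SE 0.14) and PSPH (-0.39, SE 0.10) were the members that fell. Of 14 amino acid transporters 8 were higher and 3 lower, with a median of 0.34. SLC7A5, the large neutral amino acid carrier, was at 115, 108 and 140 CPM with siUPF1, against 58.9, 63.6 and 83.2 CPM with siNT, a separated rise of 0.82 (SE 0.16). Of 20 cytosolic tRNA synthetases 3 were higher and 5 lower, with a median of -0.02, among them VARS at 1.01 (SE 0.14) and NARS at -0.73 (SE 0.08). JDP2 and SLC7A5 overlap other annotated genes and their counts are uncertain.

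Chaperones and other unfolded protein genes of the endoplasmic reticulum had 12 of 20 members higher and 1 lower, with a median of 0.27. HSPA5, the chaperone BiP, was at 580, 529 and 486 CPM with siUPF1, against 327, 320 and 244 CPM with siNT. XBP1, the transcription factor spliced by IRE1, was at 227, 227 and 245 CPM with siUPF1, against 121, 129 and 113 CPM with siNT. Both were separated and rose by 0.84 (SE 0.11) and 0.94 (SE 0.08). DNAJB9, a co-chaperone of BiP, was at 42.3, 36.3 and 24.4 CPM with siUPF1 and at 12.4, 14.1 and 9.88 CPM with siNT, with a rise of 1.51 (SE 0.24). In WT 10 members of this list were higher, with a median of 0.26, and DE636AA had 12. The test of the difference placed 4 members higher in DE636AA than in WT and 2 lower. Over all genes 1.76% were higher and 2.71% lower. Among the 4 were XBP1 (0.59, SE 0.12) and HSPA5 (0.53, SE 0.15), and HSPA5 missed the threshold in a fit to the 2 lines alone (0.55). Heat shock genes had 3 of 22 higher and 2 lower, and HSPD1, the mitochondrial chaperonin, fell to 427, 437 and 426 CPM with siUPF1, against 946, 869 and 839 CPM with siNT (-1.04, SE 0.08). DNAJB9 and HSPD1 overlap other annotated genes.

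Promoter windows of 300 bases, 250 before and 50 after the start site, are shown for 4 genes of these results whose window holds a response element, with the element in capitals. They are RefSeq sequences on GRCh38.p14, written 5′ to 3′ on the strand of the gene: JDP2 at chr14:75427772-75428071 (plus strand) with the C/EBP-ATF element, HSPA5 at chr9:125241294-125241593 (minus strand) with the ER stress element, MCOLN1 at chr19:7522374-7522673 (plus strand) with the CLEAR element of lysosomal genes, and EGR1 at chr5:138465229-138465528 (plus strand) with a serum response element.
JDP2: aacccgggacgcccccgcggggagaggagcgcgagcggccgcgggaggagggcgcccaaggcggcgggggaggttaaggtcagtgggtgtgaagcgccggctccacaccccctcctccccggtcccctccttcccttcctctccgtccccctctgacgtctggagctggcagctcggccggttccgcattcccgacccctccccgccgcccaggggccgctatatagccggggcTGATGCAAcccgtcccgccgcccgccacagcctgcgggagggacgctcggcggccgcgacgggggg
HSPA5: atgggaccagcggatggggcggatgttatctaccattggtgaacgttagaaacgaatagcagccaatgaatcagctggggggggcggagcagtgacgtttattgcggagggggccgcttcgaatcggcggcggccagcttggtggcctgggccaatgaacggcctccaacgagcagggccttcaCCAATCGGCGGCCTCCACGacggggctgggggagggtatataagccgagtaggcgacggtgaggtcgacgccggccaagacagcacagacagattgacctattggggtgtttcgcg
MCOLN1: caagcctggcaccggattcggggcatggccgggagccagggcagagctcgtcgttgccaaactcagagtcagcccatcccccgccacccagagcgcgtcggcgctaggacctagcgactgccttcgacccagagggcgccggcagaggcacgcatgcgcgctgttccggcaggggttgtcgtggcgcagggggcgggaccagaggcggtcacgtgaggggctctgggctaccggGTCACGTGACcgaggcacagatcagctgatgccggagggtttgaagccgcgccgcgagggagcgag
EGR1: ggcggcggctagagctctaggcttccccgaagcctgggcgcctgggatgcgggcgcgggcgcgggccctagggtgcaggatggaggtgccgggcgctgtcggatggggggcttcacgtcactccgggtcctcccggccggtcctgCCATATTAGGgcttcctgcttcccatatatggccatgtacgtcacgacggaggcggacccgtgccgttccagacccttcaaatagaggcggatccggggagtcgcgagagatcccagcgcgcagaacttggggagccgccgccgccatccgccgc
The first base of the element lies 16, 66, 16 and 105 bases before the start site in JDP2, HSPA5, MCOLN1 and EGR1.

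The motifs were searched on both strands: TGATGNAA for the C/EBP-ATF element, CCAAT and CCACG with 9 bases of any kind between them for the ER stress element, and for the CLEAR and serum response elements the letters in capitals in MCOLN1 and EGR1. Other spellings of these elements were not searched, marked or counted. Matches of these motifs overlap in 0 windows. The motifs were chosen after the values were seen, among 11 tried, and a match is a string of letters and not a bound site. Over all 35116 windows these 4 motifs were found in 3.62%, 0.0769%, 0.353% and 0.0342%, in that order. Of the tested genes 12409 had a window, 2405 of them called higher, 2407 lower and 7597 not called. The shares that follow are of genes and not of windows, and a gene counts if any of its windows holds the motif. TGATGNAA was in 4.12% of the genes called higher, 2.33% of those called lower and 2.59% of those not called, and the CLEAR element in 1.70%, 0.582% and 0.606%. The ER stress element was in 0.125%, 0.0415% and 0.171% of the same classes and the serum response element in 0.125%, 0% and 0.0527%, with 3 genes called higher in each case. The C/EBP-ATF letters were in 5 of 20 matched ATF4 targets, of which 4 were called higher. They were in 5 of 12 matched amino acid transporters (4 called higher, 1 lower) and in 7 of 16 matched tRNA synthetases (1 called higher, 2 lower). The ER stress letters were in 7 of 19 matched reticulum genes, of which 2 were called higher and 1 lower. The CLEAR letters were in 0 of 23 matched autophagy and lysosome genes, so MCOLN1 is not an example of that list.

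Immediate early genes, which answer growth factors and stress within minutes, had 11 of 28 members higher and 2 lower, with a median of 0.23. EGR1, a zinc-finger factor, was at 32.8, 44.5 and 29.9 CPM with siUPF1, against 9.68, 17.5 and 8.89 CPM with siNT, and FOS at 4.42, 7 and 5.09 CPM with siUPF1, against 1.89, 4.14 and 2.16 CPM with siNT. Replicate 2 was the highest of its group in both genes and under both siRNAs, and the groups did not overlap. The rises were 1.58 (SE 0.26) and 1.03 (SE 0.25). KLF6 was at 85.7, 104 and 84.8 CPM with siUPF1 and at 41.3, 55.0 and 42.9 CPM with siNT, with replicate 2 again highest in each group. The feedback and effector genes of ERK signalling had more falls, with 5 of 19 higher, 11 lower and a median of -0.31. The other lines had similar falls: WT had 1 higher, 11 lower and a median of -0.30, and CLIP 2 higher, 10 lower and a median of -0.38. ETV4, an ETS factor, was at 2.43, 1.89 and 3.83 CPM with siUPF1, against 9.21, 8.50 and 13.5 CPM with siNT, a fall of 1.94 (SE 0.33), and DUSP6, the ERK phosphatase, fell by 0.69 (SE 0.12). Both overlap other annotated genes. In WT ETV4 fell by 2.26 (SE 0.34) and DUSP6 by 1.14 (SE 0.12).

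Targets of SRF and YAP had 7 of 19 higher and 4 lower, with a median of 0.08, where WT had 7 higher, 1 lower and a median of 0.165. CYR61, a matricellular YAP target, was at 40.0, 37.9 and 37.1 CPM with siUPF1, against 13.4, 17 and 13.5 CPM with siNT, and ANKRD1 at 3.69, 4.10 and 3.31 CPM with siUPF1, against 1.28, 1.23 and 1.33 CPM with siNT. Their groups were clearly apart, with rises of 1.39 (SE 0.11) and 1.53 (SE 0.24). The list of TXNIP, arrestin-domain and TSC22 genes, many of which answer glucose or glucocorticoids, had 7 of 12 higher and 1 lower, with a median of 0.36. For this list WT had 5 higher, none lower and a median of 0.18. TSC22D3 was at 565, 558 and 714 CPM with siUPF1, against 209, 226 and 263 CPM with siNT, and ARRDC4 at 165, 265 and 233 CPM with siUPF1, against 69.1, 103 and 92.2 CPM with siNT. The rises were 1.40 (SE 0.17) and 1.33 (SE 0.19), and TSC22D3 overlaps another annotated gene. Autophagy and lysosome genes had 10 of 26 higher and 3 lower, with a median of 0.24. GLA, the lysosomal α-galactosidase, was at 159, 183 and 210 CPM with siUPF1, against 66.6, 69.9 and 69.0 CPM with siNT (1.42, SE 0.08, edgeR quasi-likelihood test, adjusted p = 6.74e-16). In WT GLA rose by 1.09 (SE 0.08), and 13 members of the list were higher and none lower, with a median of 0.20.

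Lists of sterol, sugar and matrix genes held shares of falls above that of all genes. Of 22 cholesterol synthesis genes 12 were lower and none higher, with a median of -0.31, where WT had 2 lower, 8 higher and a median of 0.18. HMGCS1, the first committed synthase, was at 128, 151 and 111 CPM with siUPF1, against 193, 220 and 198 CPM with siNT, and IDI1, the isopentenyl isomerase, at 67.9, 75.6 and 69.1 CPM with siUPF1, against 102, 120 and 108 CPM with siNT. Neither overlapped between groups, and both fell, by 0.65 (SE 0.17) and 0.64 (SE 0.12). SQLE, the squalene epoxidase, fell by 0.60 (SE 0.08). The test of the difference from WT passed for IDI1 (-0.73, adjusted p = 0.00553) and not for HMGCS1 (-0.72, 95% interval -1.19 to -0.26, adjusted p = 0.0738) in the edgeR quasi-likelihood fit. Of 18 fatty acid synthesis genes 8 were lower and 1 higher, with a median of -0.18, where WT had 7 lower, 4 higher and a median of 0.09. ACLY, the citrate lyase, was at 252, 233 and 259 CPM with siUPF1, against 480, 451 and 487 CPM with siNT, and FADS1, the delta-5 desaturase, at 16.3, 15.1 and 17.4 CPM with siUPF1, against 51.7, 51.2 and 55.9 CPM with siNT. The falls were 0.93 (SE 0.07) and 1.70 (SE 0.09). HMGCS1, IDI1, ACLY and FADS1 overlap other annotated genes.

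Glycolysis genes had 15 of 24 members lower and 4 higher, with a median of -0.33, where WT had 4 lower and 4 higher and a median of -0.04. PGM1, phosphoglucomutase, was at 37.4, 45.4 and 49.1 CPM with siUPF1, against 63.9, 67.8 and 70.1 CPM with siNT. Its groups did not overlap and it fell by 0.61 (SE 0.11), while the glucose transporter SLC2A1 rose by 0.56. The enzymes PKM, ENO1, TPI1, ALDOA, GAPDH and PGK1 fell by 0.23 to 0.50. Of 29 extracellular matrix and TGF-β genes 14 were lower and 1, TIMP3, was higher, with a median of -0.31. For this list WT had 10 lower, 4 higher and a median of -0.04. LOX, which cross-links collagen, was at 4.39, 4.79 and 6.09 CPM with siUPF1, against 15.2, 22.3 and 21.6 CPM with siNT, and the cartilage collagen gene COL2A1 at 23.8, 26.2 and 37.3 CPM with siUPF1, against 90.6, 97.5 and 111 CPM with siNT. Both were well separated and fell by 1.95 (SE 0.17) and 1.78 (SE 0.23). PGM1 and LOX overlap other annotated genes.

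The hnRNP and proliferation lists also held shares of falls above that of all genes. Of 30 hnRNP and splicing regulator genes 13 were lower and 3 higher, with a median of -0.19. HNRNPA2B1 was at 1350, 1200 and 1160 CPM with siUPF1, against 2440, 2060 and 2240 CPM with siNT, and HNRNPA3 at 678, 634 and 612 CPM with siUPF1, against 924, 814 and 825 CPM with siNT. The groups were separated and the falls were 0.86 (SE 0.08) and 0.41 (SE 0.12). The decay helicase DDX6 fell by 0.83 (SE 0.09) and the histone mRNA binding protein SLBP by 0.73 (SE 0.08), in a list of 42 exon junction and decay factors with 6 higher and 8 lower. Of 27 proliferation genes 10 were lower and 2 higher, with a median of -0.17. TYMS, thymidylate synthase, was at 96.0, 87.2 and 96.8 CPM with siUPF1, against 203, 178 and 193 CPM with siNT, a fall of 1.04 (SE 0.08). HNRNPA2B1, HNRNPA3, DDX6 and TYMS overlap other annotated genes. Lists near the background were SR protein genes (2 higher and 3 lower of 14), interferon-stimulated genes (4 and 5 of 20, with 5 called in all without siUPF1 2), neuronal genes (4 and 4 of 20) and reference genes (3 and 4 of 15). Ribosomal protein genes had 3 higher and 7 lower of 82, histone genes 5 and 4 of 56, with near-identical copies in both families. Redox genes had 8 higher and 4 lower of 22, p53 targets 3 and 7 of 20, and nuclear respiratory chain genes 3 and 11 of 73.

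**Figure D4:**
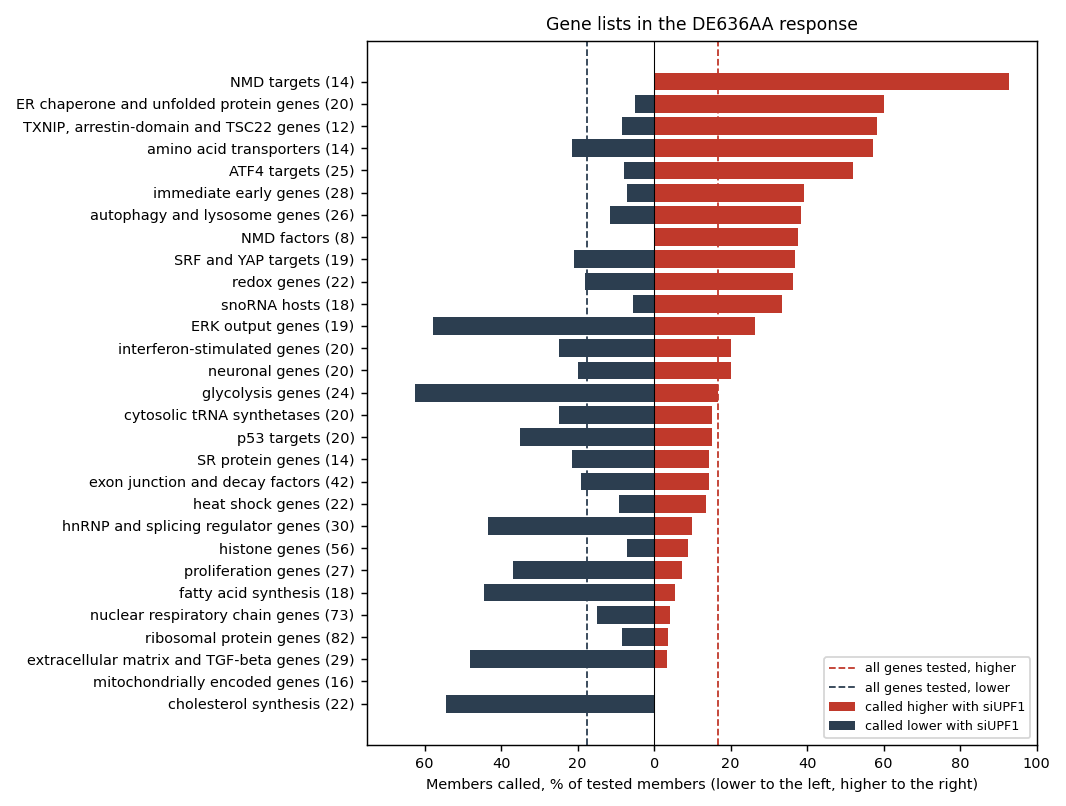
Share of each gene list called higher (right) or lower (left) with siUPF1 in DE636AA cells, in % of tested members, whose number stands in brackets. Dashed lines give the shares over all 19129 tested genes, 16.7% higher and 17.6% lower, and NMD targets reach furthest to the right with 13 of 14 while glycolysis genes reach furthest to the left with 15 of 24.

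Over the whole table the response of DE636AA cells differed from that of WT cells in 855 genes (4.47%), with 337 higher and 518 lower in DE636AA. The count was 465 in a fit to the 2 lines alone, 567 without DE636AA siUPF1 1, 503 without WT siNT 2 and 1157 with DESeq2. Of the 337, 227 were called higher with siUPF1 in DE636AA and 129 called lower in WT, and the median log2 fold changes were 0.45 and -0.19. Of the 518, 369 were called lower in DE636AA and 189 called higher in WT, with medians of -0.42 and 0.15. The genes with the largest positive differences changed in opposite directions or in different degree. EGR1 rose by 1.58 in DE636AA, with a change of -0.68 in WT, and the difference was 2.26 (SE 0.37, 95% interval 1.52 to 2.99, edgeR quasi-likelihood test, adjusted p = 0.000152). ACTA2, smooth muscle actin, was at 28.3, 31.9 and 39.7 CPM with siUPF1 and at 20.2, 19.6 and 18.6 CPM with siNT in DE636AA, a separated rise of 0.77 (SE 0.15). In WT it fell by 1.32 (SE 0.16), and the difference was 2.10 (SE 0.22, 1.66 to 2.53, adjusted p = 1.25e-07). TNFAIP3, an NF-κB feedback inhibitor, was higher in DE636AA by 1.62 (SE 0.30), and ETV5 fell in both lines, by 0.91 (SE 0.21) in DE636AA and by 2.44 (SE 0.23) in WT. ACTA2, TNFAIP3 and ETV5 overlap other annotated genes.

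Of the genes whose response was lower in DE636AA than in WT, METTL7A, a methyltransferase-like protein of lipid droplets, was at 14.6, 16.0 and 19.0 CPM with siUPF1 and at 31.2, 30.7 and 33.3 CPM with siNT. It fell by 0.94 (SE 0.13) in DE636AA and rose by 0.61 (SE 0.12) in WT, and the difference was -1.56 (SE 0.18, 95% interval -1.91 to -1.21, edgeR quasi-likelihood test, adjusted p = 3.21e-07). MAD2L1, of the spindle checkpoint, was at 40.6, 44.4 and 36.9 CPM with siUPF1 and at 104, 102 and 87.9 CPM with siNT, and TMEM14C, a mitochondrial membrane protein of haem synthesis, at 16.0, 15.1 and 17.8 CPM with siUPF1, against 43.6, 38.6 and 43.0 CPM with siNT. Their falls of 1.27 (SE 0.15) and 1.36 (SE 0.12) stood beside changes of -0.04 (SE 0.15) and -0.15 (SE 0.12) in WT. DBI, the acyl-CoA binding protein, differed by -1.15 (SE 0.21) and HTRA1, which fell in both lines, by -1.26 (SE 0.27). In K498A these 5 genes and EGR1, ACTA2, TNFAIP3 and ETV5 lay on the same side of 0 as in DE636AA, though ACTA2 was not called there (0.38, adjusted p = 0.0503). MAD2L1 and HTRA1 overlap other annotated genes.

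**Figure D5:**
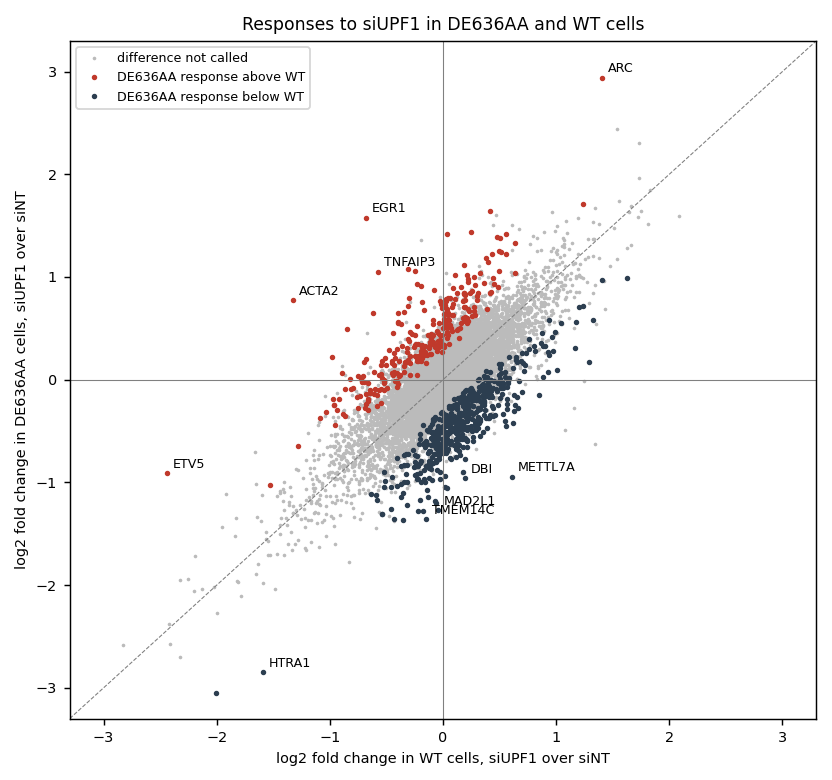
Log2 fold change of siUPF1 over siNT in DE636AA cells (vertical axis) and WT cells (horizontal axis) for 11966 genes that averaged 5 CPM or more over these 12 libraries, with the genes whose responses differ by test in red (273, DE636AA above WT) and dark blue (497, DE636AA below WT). EGR1 and ACTA2 stand upper left, and METTL7A lies lower right, and 2 genes fall outside the axes.

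The response also differed from that of CLIP in 3417 genes (17.9%), 1198 of them higher in DE636AA and 2219 lower. The count was 469 in a fit to the 2 lines alone and 5172 without CLIP siUPF1 1. Among the 2219, 1708 were called higher with siUPF1 in CLIP and 440 in DE636AA, with medians of 0.59 and -0.06. Among called genes under the naming rule, the most negative difference after that of HOXC4, a symbol that stands for more than 1 gene ID here, was of NT5M, a mitochondrial nucleotidase, which was at 3.02, 4.18 and 5.12 CPM with siUPF1 and at 8.25, 10.8 and 12 CPM with siNT. It fell by 1.33 (SE 0.26) in DE636AA and rose by 0.66 (SE 0.26) in CLIP, a difference of -1.99 (SE 0.37, edgeR quasi-likelihood test, adjusted p = 0.000153). C6orf48, which hosts small nucleolar RNAs and overlaps other genes, was at 46.3, 50.7 and 52.4 CPM with siUPF1 and at 39.6, 44.6 and 44.6 CPM with siNT, a change of 0.21 (SE 0.11, adjusted p = 0.147), and rose by 2.03 (SE 0.12) in CLIP. MAP2K6, the p38 kinase kinase, fell by 1.06 (SE 0.18) in DE636AA and by 2.85 (SE 0.20) in CLIP. CLIP siUPF1 2 stood apart from its group, with 0.631% of its counts in mitochondrially encoded genes, where the other replicates had 2.32% and 2.13%, and without it 2725 genes differed, 878 higher and 1847 lower.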

How the data were processed

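RNA was sequenced as read pairs after depletion of ribosomal RNA, and the deposited table holds expected counts per gene, not normalised, for 57820 genes in 48 libraries. Per the submitters' processing notes, the tools were cutadapt, STAR, RSEM and DESeq2, and the build hg19. Versions, annotation release and strand setting are not given in the sources used here, which leaves the counts of overlapping, antisense and copied genes uncertain.

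For the tests, the authors' expected counts were made whole by rounding. The software was edgeR 4.0.16 in R 4.3.3. The function filterByExpr kept 19129 genes, libraries were scaled by TMM, and 1 robust quasi-likelihood model, with a term for each of the 16 groups, took in all 48 libraries. The contrasts were DE636AA siUPF1 minus siNT, and the difference of that response from those of the WT, CLIP and K498A lines. Calls needed an adjusted p under 0.05 by the Benjamini-Hochberg method over all genes tested. Levels are CPM on the TMM-scaled library size, and 95% intervals take the normal multiple of the SE. The SE was derived from the test, as the absolute log2 fold change over the square root of its F statistic. Where no replicate block is mentioned, none was fitted. Alternatives were DESeq2 1.42.0, its size factors, no filter, a fit to the compared lines, the replicate number as a block and each library left out. The procedure was tested on simulated counts.

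The members and gene lists were chosen with earlier results of these data known. Named genes were UPF1, the 15 largest rises and 12 largest falls among called genes that averaged 5 CPM or more and whose groups do not overlap, all NMD factors and NMD targets, the 4 called members of each other list with the largest change, and the 5 highest and 5 lowest called differences between lines. Clone-named loci, pseudogenes and antisense symbols were skipped in the ranked parts. Genes given only by their log2 fold change to describe a list fall outside that rule and were chosen after their values were seen. GENCODE 29, on GRCh38, served for gene types, 3′ ends, GC content and overlaps, and 18396 of the 19129 tested genes were matched by ID. No coordinates of genes are given, because its build is not that of the counts. A few list members are not reported here and are in no list count. Promoter windows are from RefSeq on GRCh38.p14.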

Additional observations from a re-analysis of the deposited data

Results flagged for a closer look

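Responses that differed between the DE636AA and WT lines by the test of the difference itself were set apart for a closer look, for the genes named by size of difference and for the NMD lists. No library is shared between the compared responses. Values are DE636AA minus WT on the log2 scale, called by edgeR's quasi-likelihood test with Benjamini-Hochberg adjustment. Among the genes of largest difference EGR1 stood at 2.26, ACTA2 at 2.10, TNFAIP3 at 1.62, ETV5 at 1.53 and ARC at 1.53. METTL7A stood at -1.56, HTRA1 at -1.26, MAD2L1 at -1.23, TMEM14C at -1.21 and DBI at -1.15. In the NMD targets GADD45B differed by 1.38, ATF3 by 1.10, GABARAPL1 by 0.76, ATF4 by 0.68, MAP3K14 by 0.64 and IFRD1 by 0.63. In the NMD factors SMG5 differed by 1.03, UPF2 by 0.63 and SMG1 by 0.55, while UPF3A differed by -0.30, with a rise in WT and a change of 0.00 in DE636AA.

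Several of these calls depended on libraries. The difference of ARC missed the threshold without DE636AA siUPF1 3 (1.30), DE636AA siNT 1 (1.35), WT siUPF1 1 (1.38), WT siUPF1 2 (1.40) or WT siNT 2 (1.40), and that of UPF3A without DE636AA siUPF1 2 (-0.28). That of MAP3K14 missed it without DE636AA siUPF1 2 (0.55), siNT 1 (0.57) or siNT 3 (0.63) and without WT siUPF1 1 (0.60), siUPF1 3 (0.63), siNT 1 (0.58) or siNT 2 (0.60). In a fit to the 2 compared lines alone, the differences of GADD45B (1.40), ARC (1.55), MAP3K14 (0.66) and UPF3A (-0.29) from WT and of EGR1 (1.52), MAGED4B (1.82) and WNK4 (-1.62) from CLIP missed it, as did that of UPF3A from WT with no filter on low counts (-0.27).

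Against CLIP, the genes of largest difference were UPF1 at 2.53, ACTA2 at 1.83, MAP2K6 at 1.79, MAGED4B at 1.79 and EGR1 at 1.52, and on the other side HOXC4 at -2.56, NT5M at -1.99, C6orf48 at -1.82, EPHA10 at -1.63 and WNK4 at -1.62. MAGED4B has a near-identical copy, and its difference missed the threshold without DE636AA siUPF1 1 (1.66), siUPF1 2 (1.51), siNT 1 (1.75) or siNT 2 (1.47) and without CLIP siUPF1 2 (1.47), siNT 1 (1.85), siNT 2 (1.69) or siNT 3 (1.81). HOXC4 stands for more than 1 gene ID, and its levels overlapped in DE636AA cells, at 21, 41.0 and 26.1 CPM with siUPF1 and 42.3, 14.5 and 33.4 CPM with siNT.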

How the results depend on the processing

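The count of genes changed by siUPF1 in DE636AA stayed within 5286 and 7451 under every alternative, the range over single libraries left out being 5286 to 5900. The count of differences from WT was 1406 with the replicate block and 465 in the fit to the compared lines, and 503 to 786 with a library left out. It was 567 without DE636AA siUPF1 1 and 503 without WT siNT 2. The count against CLIP was 469 in the fit to the compared lines, and 2347 to 5172 with a library left out, the highest without CLIP siUPF1 1. Against K498A it was 42 with no filter on low counts and 0 in the other fits run. The cause was not tested.

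Replicate numbers were taken to pair a line's samples where all 3 same-number correlations of deviations passed 0.1. They were 0.255, 0.097 and 0.116 in DE636AA, 0.127, 0.092 and 0.183 in WT and 0.028, 0.018 and 0.096 in CLIP, and 0.182, 0.157 and 0.283 in K498A, where they passed. In DE636AA each library correlated best with its own number. With the replicate block the main comparison called 7451 genes, UPF1 among them (0.36, adjusted p = 0.0427 by edgeR).

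Of single-gene values for DE636AA, 1815 kept their side of the threshold, 46 lost it and 6 gained it, and none reversed. Differences were followed only for genes called in the main fit, so no call could be gained. Of these values 1533 kept the call and 201 lost it. List counts moved by over 1.5 times in 13 of 352 cases, among them heat shock genes, with 9 called under the block, and histone genes, with 14 called with no filter. Genes under a few CPM have wide errors, and isoform switches cannot be seen in gene totals.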
